A study of Mus musculus with 6 samples.

Results

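A set of 10 genes of the AP-1 and immediate early response was followed in mouse embryonic stem cells that carried an EWS-OCT-4 fusion. They were found by symbol among the 23238 symbols of the count files, and all 10 were present. They are the FOS family (Fos, Fosb, Fosl1, Fosl2), the JUN family (Jun, Junb, Jund), the related factor Atf3, the zinc finger factor Egr1 and the survival gene Ier3. The tested cells were the EWS-OCT-4 stable line, which carries EWS fused to OCT4A and GFP (3 libraries). Their control was the EGFP stable line (3 libraries). Both lines are of strain 129/Ola, come from Niwa cells, were grown with LIF and were given doxycycline at 1 µg/ml, which lowers endogenous OCT-4. No library lacked doxycycline, so higher and lower here compare the lines with each other. Whether each line is 1 clone or a pool is not given in the sources used here, and any other difference between these lines cannot be told apart from the fusion.

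FOS and JUN proteins bind DNA as pairs held together by leucine zippers, and such a pair is called AP-1. FOS proteins need a JUN partner, whereas JUN proteins can also pair with each other or with ATF factors. Growth factors and stress switch on Fos, Jun and Egr1 within minutes and without new protein synthesis, through ERK and JNK kinases, serum response factor and CREB, and the messages decay fast. In the mouse, Fosl1 and Junb are both needed for a working placenta.

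The libraries held 10978025 to 12281444 counts in the EWS-OCT-4 line and 13239383 to 14935887 in the EGFP line, so that 1 count stood for 0.0814 to 0.0911 CPM in the EWS-OCT-4 libraries and 0.067 to 0.0755 CPM in the EGFP libraries. Pou5f1, the OCT-4 gene, had 18, 21 and 36 counts in the EWS-OCT-4 libraries and 5, 13 and 10 in the EGFP libraries. How the fusion message ends is not stated in the sources used here, so such tags check no label. In each line, the library numbered 3 differed most from the rest. Chi-square divided by its degrees of freedom was 32 and 32.3 for pairs with EWS-OCT-4 number 3 and 4.21 for the remaining pair. In the EGFP line these were 23.7 and 25 with number 3 and 3.96 without it. The markers of the EGFP line went against its label as embryonic stem cells. The 10 pluripotency markers summed to 4533 to 4730 CPM in the EWS-OCT-4 libraries and 219.9 to 312 CPM in the EGFP libraries, and all 10 were higher in the EWS-OCT-4 line. The 15 trophoblast markers summed to 258 to 294 CPM in the EWS-OCT-4 libraries and 7922 to 8890 CPM in the EGFP libraries. All 15 were lower in the EWS-OCT-4 line, and Plac1, Prl3d1 and Tpbpa were at 0 there. Tfap2c (mean 240.4 CPM) made up most of the EWS-OCT-4 sum. The 7 primitive endoderm markers summed to 5.54 to 6.64 CPM in the EWS-OCT-4 libraries and 104 to 123 CPM in the EGFP libraries. Of 4 tested, 3 were lower and 1 was higher in the EWS-OCT-4 line. Dab2 (mean 79.5 CPM) and Gata6 (31.2 CPM) made up most of the EGFP sum. Gata4 went the other way, with means of 2.08 CPM in the EWS-OCT-4 line and 0.143 CPM in the EGFP line. Sox7, which was not tested, was also higher in the EWS-OCT-4 line (0.929 against 0.0918 CPM). The 8 fibroblast markers summed to 20.4 to 27.1 CPM in the EWS-OCT-4 libraries and 12.6 to 16.3 CPM in the EGFP libraries. Of 5 tested, 1 was lower and 1 was higher in the EWS-OCT-4 line, and Col1a1, Col1a2 and Col3a1 did not pass. Thy1 (mean 17.9 CPM) made up most of the EWS-OCT-4 sum and Postn (9.16 CPM) most of the EGFP sum. Postn and Twist2 were at 0 in the EWS-OCT-4 line. The part of these cell-type differences in the results that follow was not tested.

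The stretch before the start site is shown for 4 members because it holds the DNA letters that FOS, JUN and ATF proteins are known to bind, and because 3 of these genes fell while Junb did not pass the test. Each is the 250 bases before the RefSeq start on GRCm38.p6, read 5′ to 3′ on the strand of the gene. Capitals mark TGACG, the core of the cAMP response element, on either strand, and TGACATCA, a variant AP-1 site. The last 7 bases of the Atf3 stretch lie in an annotated exon. Fos is at chr12:85473640-85473889 (plus strand), Jun at chr4:95052223-95052472 (minus), Atf3 at chr1:191183334-191183583 (minus) and Junb at chr8:84978749-84978998 (minus).
Fos: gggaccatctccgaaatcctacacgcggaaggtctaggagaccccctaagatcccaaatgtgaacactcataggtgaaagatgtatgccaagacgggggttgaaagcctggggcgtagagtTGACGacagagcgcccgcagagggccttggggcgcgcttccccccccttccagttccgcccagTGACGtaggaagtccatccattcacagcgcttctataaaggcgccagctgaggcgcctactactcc
Jun: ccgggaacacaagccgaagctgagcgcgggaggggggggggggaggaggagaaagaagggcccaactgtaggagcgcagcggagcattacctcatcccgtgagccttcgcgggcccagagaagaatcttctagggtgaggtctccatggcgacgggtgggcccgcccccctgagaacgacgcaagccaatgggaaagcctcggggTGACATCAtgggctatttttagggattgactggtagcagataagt
Atf3: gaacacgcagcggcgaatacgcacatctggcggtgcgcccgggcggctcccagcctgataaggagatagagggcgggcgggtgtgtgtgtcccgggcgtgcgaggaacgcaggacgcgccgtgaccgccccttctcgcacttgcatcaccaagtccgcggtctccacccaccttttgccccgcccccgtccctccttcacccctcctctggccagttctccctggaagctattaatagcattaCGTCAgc
Junb: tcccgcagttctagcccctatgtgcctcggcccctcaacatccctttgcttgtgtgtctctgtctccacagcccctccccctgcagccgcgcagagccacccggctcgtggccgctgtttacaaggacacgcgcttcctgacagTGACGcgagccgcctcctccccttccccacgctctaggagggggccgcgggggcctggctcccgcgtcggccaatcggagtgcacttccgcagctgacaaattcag

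RefSeq stretches of this kind were at hand for 8 of the 10 members, and named only are Fosl1 and Egr1. TGACG was found in 4 of the 8 (Fos, Fosb, Junb and Atf3), against 25.9% of 12962 such stretches of tested genes and 17.8% of all 32841. Fos held it 66 to 62 and 129 to 125 bases before its start, Junb at 106 to 102, Fosb at 60 to 56 and Atf3 at 7 to 3. TGACATCA was found in Jun alone among these 8, at 45 to 38 bases before the start, against 1.54% of stretches of tested genes. No stretch of these members held the AP-1 consensus TGANTCA (4.24% of those of tested genes), the full TGACGTCA, which contains TGACG (2.57%), or a CArG box, the site of serum response factor (1.18%). Not every window lies just before the annotated gene: that of Fosl2 lies wholly in annotated exon (250 of 250 bases), that of Jund ends at 70697738, upstream of the gene model's start at 70698949, and that of Atf3 is inside the gene model, before a shorter transcript. Both strands were searched, and a match or its absence in this window describes letters and not binding. Bases farther before the start were not searched, and Egr1 and Fosl1 were not searched at all, so sites there are not excluded. Of the tested members with TGACG, Fos and Atf3 fell and Junb did not pass the test. Among those searched without TGACG, Fosl2, Jun and Jund fell and Ier3 rose.

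Most AP-1 genes were lower in cells with the fusion. Of the 9 members that passed the filter on low counts, 6 fell (Atf3, Fosl2, Fosl1, Jun, Fos and Jund), 1 rose (Ier3), and Junb and Egr1 did not pass the test. Among all 13467 genes tested, 34.1% fell and 33.3% rose, 67.4% in all. The share of members called in either direction, 77.8%, was near that background. A fall of at least 4-fold was found for 5 of the 9, against 12.3% of all genes tested. Libraries of the lines did not overlap for 7 of the 10 members, against 72.7% of genes tested. The median log2 fold change of the 9 was -2.67, against 0.00 over all genes tested. The members were chosen with earlier results of these data known, so these shares and medians describe them and test nothing. In bulk RNA, fewer cells that express a gene and less of its RNA per cell cannot be told apart.

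**Figure D1:**
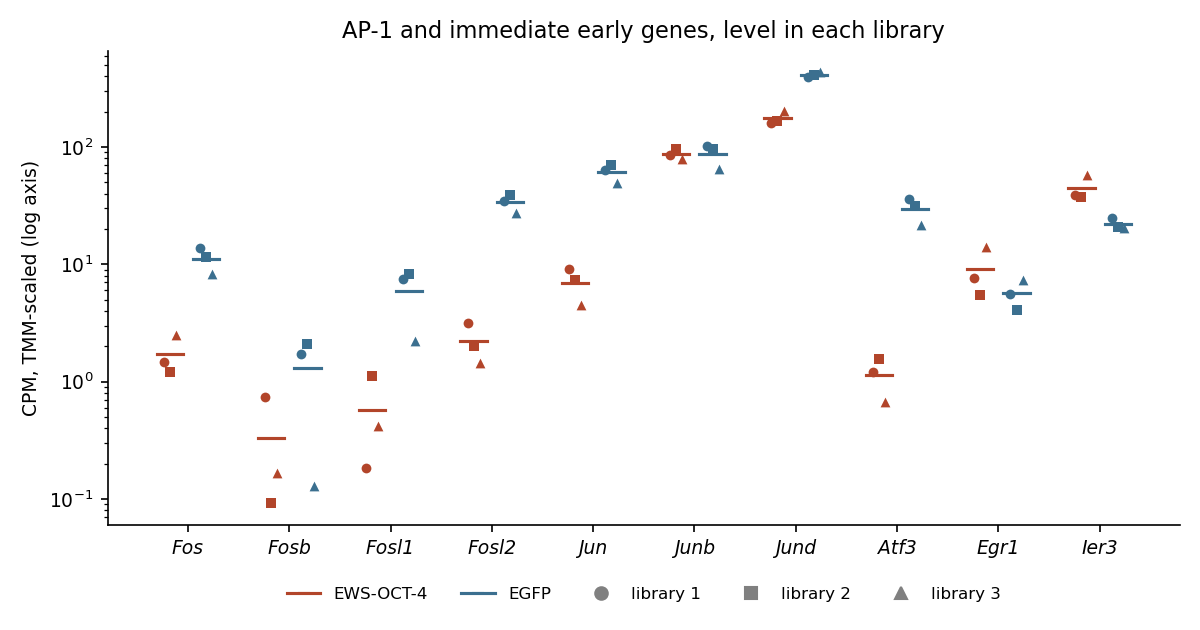
Level of each of the 10 genes in TMM-scaled CPM on a log axis, with EWS-OCT-4 libraries left of EGFP libraries for each gene, bars at the mean of 3 libraries and symbols by library number. Fos, Fosl1, Fosl2, Jun, Jund and Atf3 lie lower in every EWS-OCT-4 library than in any EGFP library, Ier3 lies higher, and Fosb, Junb and Egr1 overlap.

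Among the FOS family, the 3 members with enough counts fell. Fos, the founding member and the classic gene of rapid induction (chromosome 12, 85473890 to 85477273, plus strand), was at 1.48, 1.2 and 2.52 CPM in the EWS-OCT-4 libraries and 13.7, 11.5 and 8.19 CPM in the EGFP libraries. Its highest EWS-OCT-4 library lay well under its lowest EGFP library. The mean was 1.73 ± 0.695 CPM in the EWS-OCT-4 line and 11.1 ± 2.78 CPM in the EGFP line (SD, n = 3 each), a log2 fold change of -2.67 (SE 0.36, adjusted p = 9.3e-05, edgeR's quasi-likelihood test, Benjamini-Hochberg over all genes tested).

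Fosl2, which encodes FRA-2, a FOS protein that lacks the strong activation domain of FOS (chromosome 5, 32135801 to 32157842, plus strand), fell by more than 4-fold. It had 34, 22 and 17 counts in the EWS-OCT-4 libraries and 467, 553 and 422 in the EGFP libraries. These are 2.2 ± 0.866 CPM in the EWS-OCT-4 line and 33.7 ± 5.76 CPM in the EGFP line, a log2 fold change of -3.94 (SE 0.29, adjusted p = 1.4e-06, edgeR). Every EWS-OCT-4 library was far below every EGFP library.

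Fosl1 encodes FRA-1, the FOS protein that the mouse placenta needs (chromosome 19, 5447547 to 5455946, plus strand). It had 2, 12 and 5 counts in the EWS-OCT-4 libraries and 100, 117 and 34 in the EGFP libraries, so EWS-OCT-4 was near the detection floor and EGFP number 3 was the lowest of its line. The means were 0.571 ± 0.48 CPM in the EWS-OCT-4 line and 5.96 ± 3.27 CPM in the EGFP line, a log2 fold change of -3.37 (SE 0.67, adjusted p = 0.0013, edgeR). Without EWS-OCT-4 replicate 2, which held most of the counts of its line, it was -4.23 (adjusted p = 0.00124, edgeR). Ccdc85b overlaps Fosl1 on the other strand and stood at 3.51, 3.14 and 3.27 CPM in the EWS-OCT-4 libraries and 7.76, 9.05 and 2.54 CPM in the EGFP libraries. Since the use of strand is not given, tags of these overlapping genes cannot be told apart.

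Fosb, whose shorter product is known from lasting stimulation of neurons (chromosome 7, 19302696 to 19310051, minus strand), did not pass the filter on low counts. It had 8, 1 and 2 counts in the EWS-OCT-4 libraries and 23, 30 and 2 counts in the EGFP libraries, and the lines overlapped through EGFP number 3. The mean was 0.333 ± 0.353 CPM in the EWS-OCT-4 line and 1.32 ± 1.05 CPM in the EGFP line. An exact permutation test over the libraries gave p = 0.3 (two-sided), where 3 against 3 can reach no less than 0.1. Without EGFP replicate 3 it passed the filter, with a log2 fold change of -2.51 (adjusted p = 0.0172 by edgeR's test), and in libraries numbered 1 and 2 alone it was -2.16 (adjusted p = 0.0145). It was not called with no filter (-1.97, adjusted p = 0.104, edgeR), nor without EWS-OCT-4 replicate 2 (-1.53, adjusted p = 0.252) or 3 (-1.63, adjusted p = 0.244). Without EWS-OCT-4 replicate 1, which held most of the counts of its line, Fosb was at -3.22 and at the cutoff, not called (adjusted p = 0.05, edgeR). Summed over the family, FOS genes stood at 5.53, 4.43 and 4.53 CPM in the EWS-OCT-4 libraries and 57.7, 60.6 and 38 CPM in the EGFP libraries.

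The JUN family split into a large fall, a small fall and a gene that did not pass the test. Jun, whose protein is the strongest activator of the family (chromosome 4, 95049034 to 95052222, minus strand), was at 9.13, 7.3 and 4.53 CPM in the EWS-OCT-4 libraries and 63.1, 69.7 and 49.6 CPM in the EGFP libraries. The groups were far apart. The means were 6.99 ± 2.31 CPM in the EWS-OCT-4 line and 60.8 ± 10.2 CPM in the EGFP line, a log2 fold change of -3.12 (SE 0.25, adjusted p = 2.9e-06, edgeR). The antisense gene Junos overlaps Jun and was not analysed here.

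Jund, the JUN gene that most cells keep on without stimulation (chromosome 8, 70698949 to 70700616, plus strand), fell by less. It was at 159, 166 and 203 CPM in the EWS-OCT-4 libraries and 394, 407 and 433 CPM in the EGFP libraries, which did not overlap. The means were 176 ± 23.9 CPM in the EWS-OCT-4 line and 411 ± 19.9 CPM in the EGFP line, a log2 fold change of -1.22 (SE 0.13, adjusted p = 1.6e-05, edgeR). Its 95% interval was -1.51 to -0.94 and that of Jun was -3.69 to -2.56, and the difference between these genes was not tested. Gm11175 overlaps Jund on the opposite strand and was not analysed here.

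Junb, which often restrains growth where JUN drives it (chromosome 8, 84974484 to 84978718, minus strand), was at 85.2, 95.2 and 78.8 CPM in the EWS-OCT-4 libraries and 101, 96.9 and 64.4 CPM in the EGFP libraries. The EWS-OCT-4 values lay inside the EGFP range. The log2 fold change was -0.01 (SE 0.18, adjusted p = 0.948, edgeR), with a 95% interval of -0.41 to 0.38. Prdx2, a peroxiredoxin gene that overlaps Junb on the opposite strand, was at 176 ± 17 CPM in the EWS-OCT-4 line and 81.3 ± 4.33 CPM in the EGFP line (log2 fold change 1.11, adjusted p = 2.5e-05, edgeR). Tags of this pair cannot be assigned by strand. The summed JUN genes were at 253, 268 and 287 CPM in the EWS-OCT-4 libraries and 558, 574 and 547 CPM in the EGFP libraries.

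Atf3, a stress-induced factor that pairs with JUN proteins and mostly represses (chromosome 1, 191170296 to 191218039, minus strand), showed the largest fall of the 9 tested members. It had 13, 17 and 8 counts in the EWS-OCT-4 libraries and 487, 445 and 334 in the EGFP libraries, so no EWS-OCT-4 library came near the EGFP line. The means were 1.15 ± 0.451 CPM in the EWS-OCT-4 line and 29.8 ± 7.41 CPM in the EGFP line, a log2 fold change of -4.70 (SE 0.33, adjusted p = 1.1e-06, edgeR). Of all genes tested, 3.32% had a lower log2 fold change. Gm24748, annotated as a misc_RNA, lies within the span of Atf3 and was not analysed here.

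Egr1 and Ier3 were not among the genes that fell. Egr1, a zinc finger factor induced by ERK (chromosome 18, 34859823 to 34864984, plus strand), was at 7.66, 5.45 and 14 CPM in the EWS-OCT-4 libraries and 5.59, 4.07 and 7.35 CPM in the EGFP libraries. The lines overlapped, and number 3 was the highest library of each line. The log2 fold change was 0.67 (SE 0.37, 95% interval -0.16 to 1.51, adjusted p = 0.136 by edgeR's test). It was 0.21 without EWS-OCT-4 replicate 3 (adjusted p = 0.601, edgeR) and 0.94 without EWS-OCT-4 replicate 2 (adjusted p = 0.0502).

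Ier3, an immediate early gene that protects cells from apoptosis (chromosome 17, 35821684 to 35822923, plus strand), was the member that rose. It was at 38.7, 37.8 and 57.8 CPM in the EWS-OCT-4 libraries and 24.8, 20.7 and 20.4 CPM in the EGFP libraries. All EWS-OCT-4 libraries were above all EGFP libraries. The means were 44.8 ± 11.3 CPM in the EWS-OCT-4 line and 22 ± 2.49 CPM in the EGFP line, a log2 fold change of 1.03 (SE 0.20, adjusted p = 1.0e-03, edgeR).

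**Figure D2:**
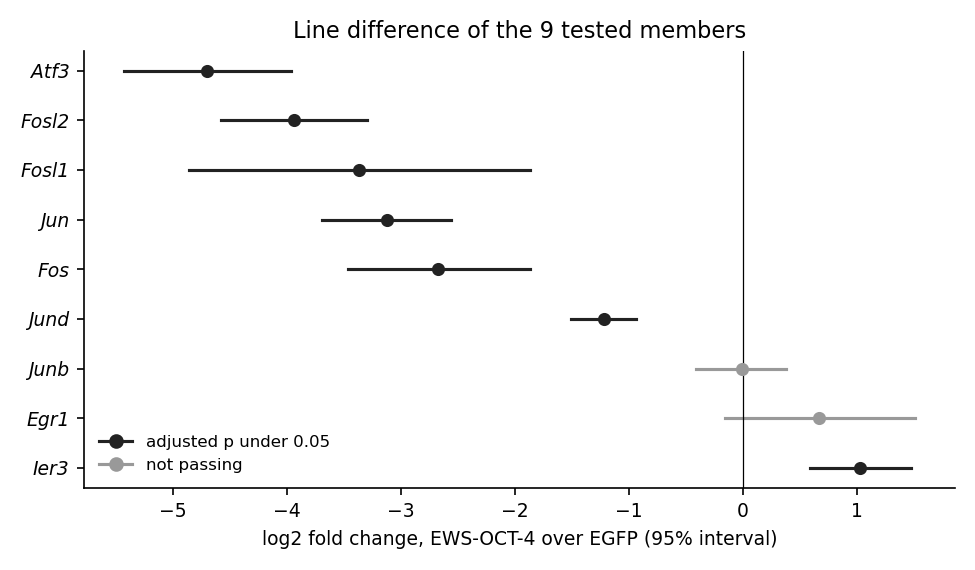
Log2 fold change of EWS-OCT-4 over EGFP for the 9 tested members with 95% intervals, black where the adjusted p was under 0.05 and grey where it was not. The 6 genes that fell run from -4.70 (Atf3) to -1.22 (Jund), Junb and Egr1 have intervals across 0, and Ier3 is at 1.03.

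The members also varied between libraries of 1 line. EGFP number 3 was the lowest EGFP library for 8 of the 10 members and the highest for Jund and Egr1. For Ier3 it was lower by little, at 20.4 CPM against 20.7 CPM in EGFP number 2. Against the mean of EGFP numbers 1 and 2 it was lower by a log2 ratio of -3.88 for Fosb, -1.82 for Fosl1, -0.64 for Atf3, and -0.62 for Fos and for Junb. EWS-OCT-4 number 3 was the lowest of its line for 4 members and the highest for 4, with 0.91 for Fos and 1.10 for Egr1. The same shares over all genes tested were not computed, and number 3 differed most from its line over all genes. These counts therefore do not set the members apart from other genes. Between the libraries numbered 3 alone, with no test, the log2 ratio of EWS-OCT-4 over EGFP was -5.02 for Atf3, -4.27 for Fosl2, -3.45 for Jun, -2.40 for Fosl1, -1.70 for Fos and -1.09 for Jund. It was above 0 for Ier3, at 0.93 for Egr1, 0.29 for Junb and 0.37 for Fosb. For the 6 genes that fell, the negative sign in this pair follows from libraries that did not overlap between the lines, and adds no separate check.

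The members have few exons, a feature that the choice by name did not use. Their longest protein-coding transcripts have a median of 3 exons and 2046 spliced bases, against 9 exons and 3087 bases over 12395 tested genes. Length did not set all of them apart, since Fosl2 (6537 spliced bases), Egr1 (4484), Fosb (3782) and Jun (3189) were longer than that median of tested genes, and the median 3′ UTR was 1000 bases, against 1105. Jun, Junb and Jund have 1 exon each, as do 2.55% of tested genes. The 3′ UTRs held a median of 2.2 ATTTA pentamers per kb, a letter string of unstable messages, against 1.25. Ier3 held 5 in 613 bases, Fos 4 in 815, Junb 2 in 485, Jun 4 in 1233 and Fosl2 8 in 4653. Atf3 held 3 in 1186 bases, Jund 1 in 533, Egr1 2 in 1216, Fosl1 1 in 638 and Fosb 1 in 2145. The longer string TTATTTATT, known from messages bound by decay factors, was in the 3′ UTR of Fos and Fosl2, against 7.94% of tested genes.

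Other immediate early genes moved in both directions. Of 32 on the list, 25 were tested, 13 fell, 8 rose and 4 did not pass, with a median log2 fold change of -1.23. That is 84% called, against 67.4% of all genes tested. Rhob, a small GTPase gene induced by growth factors and damage, was at 7.38 ± 1.75 CPM in the EWS-OCT-4 line and 278 ± 22 CPM in the EGFP line (log2 fold change -5.23, SE 0.19, adjusted p = 2.4e-08, edgeR). Ier5, whose product acts with heat shock factor, was at 5.52 ± 1.51 CPM in the EWS-OCT-4 line and 175 ± 5.64 CPM in the EGFP line (-4.99, SE 0.20). The growth regulator Myc and the pseudokinase gene Trib1 fell by 4.77 and 4.28 on the log2 scale. Ier2, a short nuclear immediate early gene, had the opposite sign, with 52.5, 48.5 and 40.8 CPM in the EWS-OCT-4 libraries and 2.09, 0.982 and 2.73 CPM in the EGFP libraries (log2 fold change 4.60, SE 0.30, adjusted p = 6.9e-07, edgeR). It was the largest rise of the list.

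Further genes of this list are named after their values were seen. Klf6 (-3.65), Cyr61 (-3.56), Csrnp1 (-3.50), Cebpb (-3.21), Gadd45b (-2.33), Plk2 (-2.26), Btg2 (-2.15), Plk3 (-1.37) and Zfp36 (-1.23) were the other genes that fell, as log2 fold changes. The remaining rises were Arc (2.23), Sgk1 (2.03), Nr4a2 (1.98), Klf10 (1.25), Cebpd (1.22), Ctgf (1.13) and Mcl1 (0.58). The call of Ctgf was lost without EWS-OCT-4 replicate 1 or 2 or EGFP replicate 2 or 3 (adjusted p up to 0.161, edgeR). Dusp1, a phosphatase gene of MAP kinases, was at 52.6 ± 15.9 CPM in the EWS-OCT-4 line and 73.4 ± 2.14 CPM in the EGFP line (adjusted p = 0.0651, edgeR) and passed without EWS-OCT-4 replicate 1 (adjusted p = 0.0452). Nr4a1 did not pass either (adjusted p = 0.0994, edgeR) but did so without EWS-OCT-4 replicate 3 (log2 fold change 1.08, adjusted p = 0.00435). The relatives of Egr1 were too low to test: Egr2 had 5 counts in the EWS-OCT-4 line and 9 in the EGFP line, Egr3 had 9 in the EWS-OCT-4 line and 4 in the EGFP line, and Egr4 had 22 in the EWS-OCT-4 line and 0 in the EGFP line.

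Other leucine zipper factors, some of which can pair with FOS or JUN, changed in both directions. Of 20 on the list, 14 were tested, 9 fell and 4 rose (92.9% called), with a median of -0.66. Of all genes tested, 34.1% fell and 33.3% rose. Batf3, which pairs with JUN proteins in immune cells, was at 2.6 ± 1.26 CPM in the EWS-OCT-4 line and 94 ± 14 CPM in the EGFP line (log2 fold change -5.17, SE 0.29, adjusted p = 2.9e-07, edgeR). Creb5, an ATF2-like factor, was at 32.9 ± 1.79 CPM in the EWS-OCT-4 line and 2.39 ± 0.396 CPM in the EGFP line (3.78, SE 0.21). Chosen after their values were seen, Atf2 (-0.50) and Atf7 (-2.15) fell and Jdp2 (0.80) and Atf4 (0.84) rose. The calls of Atf2 and Jdp2 did not hold without EGFP replicate 3 (adjusted p = 0.0502 and 0.0541, edgeR), nor did that of Jdp2 without EGFP replicate 1 or EWS-OCT-4 replicate 3.

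The kinases and factors upstream moved in both directions. All 25 were tested, 6 fell, 7 rose and 12 did not pass, which is 52% called, against 67.4% of all genes tested, with a median of -0.03. Mkl1, a coactivator of serum response factor, was at 14.4 ± 0.945 CPM in the EWS-OCT-4 line and 42.2 ± 4.21 CPM in the EGFP line (log2 fold change -1.55, SE 0.16, adjusted p = 1.3e-05, edgeR). The kinase genes Rps6ka4 and Rps6ka5, which encode MSK kinases that act on CREB and histone H3, moved apart, by -1.73 and 1.81. Srf, which encodes serum response factor and is named after its value was seen, was at 54.3 ± 5.35 CPM in the EWS-OCT-4 line and 107 ± 22.1 CPM in the EGFP line (-0.98, adjusted p = 5.8e-04, edgeR). The kinase gene Mapk3, also named afterwards, rose (0.59). Tested against a 1.5-fold change, 7 of the 25 upstream genes were called, against 47.5% of all genes tested.

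The EGR co-regulators, which bind EGR proteins and restrain them, differed in direction. Nab1 was at 10.9 ± 2.24 CPM in the EWS-OCT-4 line and 48.5 ± 5.24 CPM in the EGFP line (log2 fold change -2.15, SE 0.19, adjusted p = 5.9e-06, edgeR). Nab2, itself an EGR target, was at 19.8 ± 2.64 CPM in the EWS-OCT-4 line and 12.8 ± 1.5 CPM in the EGFP line (0.62, SE 0.19, adjusted p = 0.0153, edgeR). The call of Nab2 was lost without EWS-OCT-4 replicate 2 (adjusted p = 0.0663, edgeR) or EGFP replicate 1 (adjusted p = 0.0715).

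Genes known as AP-1 targets in other cells changed both ways. Of 17 listed, 11 were tested, 7 fell and 3 rose (90.9% called, against 67.4% of all genes tested), with a median of -0.98. Plaur, the urokinase receptor, was at 1.45 ± 0.202 CPM in the EWS-OCT-4 line and 24.7 ± 12.7 CPM in the EGFP line (log2 fold change -4.07, SE 0.46, adjusted p = 2.9e-05, edgeR). The secreted phosphoprotein Spp1 rose, with 145, 148 and 95.1 CPM in the EWS-OCT-4 libraries and 2.61, 3.44 and 9.56 CPM in the EGFP libraries (4.62, and 5.41 without EGFP replicate 3). The growth factor Hbegf (-3.62) and the cyclin gene Ccnd1 (2.86), chosen after their values were seen, also moved apart. Mmp9 lost its call without EWS-OCT-4 replicate 1 or 2 or any of the 3 EGFP libraries (adjusted p up to 0.153, edgeR). Cd44, with 5 counts in the EWS-OCT-4 line, had a log2 fold change of -3.61 that was -3.02 without EWS-OCT-4 replicate 3. Without EWS-OCT-4 replicate 1, which held all 5, no count was left in that line.

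Heat shock genes, part of the general stress response, were measured beside these lists. Of 10, 6 fell, 2 rose and 2 did not pass (80% called, against 67.4% of all genes tested), with a median of -0.92. Hspa1b and Hspa1a, near-identical genes whose reads can be shared, were at 4.18 ± 1.11 and 3.34 ± 0.865 CPM in the EWS-OCT-4 line and 34.2 ± 6.37 and 21.4 ± 1.66 CPM in the EGFP line. Their log2 fold changes were -3.04 and -2.68 (adjusted p = 3.1e-06 and 6.7e-06, edgeR), and that of the co-chaperone Bag3 was -2.55. Their part in the differences of the immediate early genes was not tested. Hsp90aa1 passed the test without EWS-OCT-4 replicate 3 (log2 fold change -0.44, adjusted p = 0.0363, edgeR) but not with all libraries (-0.17).

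**Figure D3:**
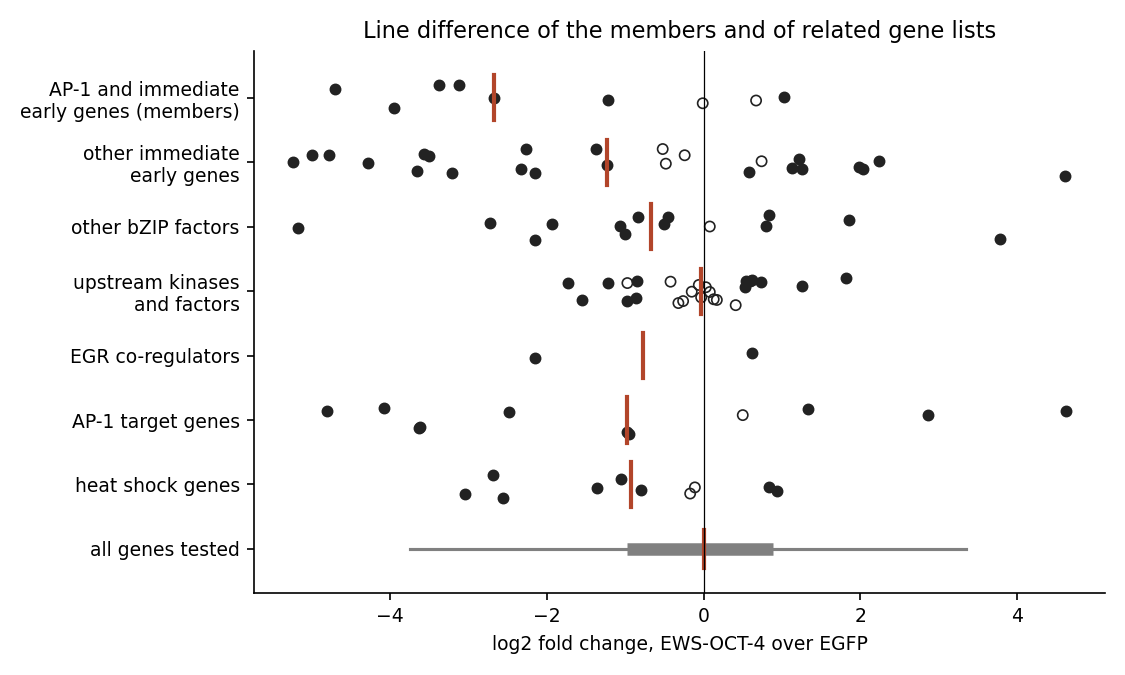
Log2 fold change of EWS-OCT-4 over EGFP for each tested gene of the members and of 6 lists, filled where the adjusted p was under 0.05 and open where it was not, with red bars at list medians. The bottom row gives all 13467 genes tested, as the 5th to 95th percentile (thin line, -3.74 to 3.35) and the 25th to 75th (thick line, -0.97 to 0.88). The median of the members is -2.67 and that of the upstream genes is -0.03.

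The genes nearest in pattern were found by the distance between log2 CPM values over the 6 libraries. Nearest to Fos were 1700052K11Rik (distance 0.425) and Zfyve1 (0.575), an endosomal and ER zinc finger gene. Jun lay close to Mbd2 (0.438), which encodes a reader of methylated DNA, and to Fam107b (0.483). The nearest to Fosl1 were farther off, with Kcnc4, a potassium channel gene, at 1.02 and the ephrin receptor gene Epha1 at 1.38. Egr1 was closest to Btbd6 (0.508) and Tiam2 (0.584), which did not pass the test either. Mbd2 was at 7.56, 7.57 and 5.37 CPM in the EWS-OCT-4 libraries and 56.2, 61.4 and 48.8 CPM in the EGFP libraries, the same order of lines as Jun. The 6 points share the split into lines, so the distance describes level and line difference together.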

How the data were processed

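RNA of 6 libraries was measured by Lexogen QuantSeq, which reads tags at transcript 3′ ends, from 500 ng of total RNA per the labels' protocols. The deposited files held whole-number counts per gene symbol, which the authors had not scaled: totals differed between libraries. Bowtie2, edgeR and build mm10 are named in the submitters' processing notes, without roles. How reads were counted, with which annotation and whether by strand, is not given in the sources used here.

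Symbols on several lines were summed (35 of 23238). Groups came from the sample titles. With edgeR 4.0.16 in R 4.3.3, counts were scaled by TMM, whose factors ran between 0.971 and 1.03. Genes were kept by filterByExpr at a count of 10 and a total of 15. The 2-sided robust quasi-likelihood F test set EWS-OCT-4 against EGFP. P-values were adjusted by Benjamini-Hochberg over all 13467 genes tested and called at 0.05. The biological coefficient of variation was 19.3%. Levels are TMM-scaled CPM. The test was checked on simulated data in which far fewer genes changed than were called here. That check does not cover a line difference as broad as the present one. No label says that libraries came from separate cultures, so the p-values reflect no more than the spread among these samples, and that spread may be technical.

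The 10 members and all lists were chosen with earlier results of these data known. The naming rule took the members, up to 5 other immediate early genes and up to 3 genes of each other list (called, largest change, libraries apart), the 2 genes nearest in pattern to Fos, Fosl1, Jun and Egr1, and Pou5f1. Other genes named were chosen after their values were seen. A few list genes picked by this rule go unreported. Alternatives were other scaling, filters, tests (limma-voom 3.58.1, DESeq2 1.42.0) and thresholds, a replicate block, leaving out libraries, and leaving out Rn45s. Positions are from GENCODE M21 (GRCm38, the assembly of mm10) and start-site sequences from RefSeq on GRCm38.p6.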

Additional observations from a re-analysis of the deposited data

How the results depend on the processing

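The 7 calls among the members held, with their signs, under DESeq2 size factors, no filter, DESeq2, limma-voom, a 1.5-fold minimum change, without Rn45s, at a stricter adjusted p (0.01), and with any library left out. With a minimum mean of 10 CPM, Fos and Fosl1 were not tested and the other 5 remained. Leaving out libraries gave 7 to 8 called members, since Fosb was added without EGFP replicate 3, and 8122 to 9385 called genes in all, against 9073. With libraries numbered 1 and 2 alone, 8 members and 10240 genes were called. Junb ran from -0.20 to 0.09 on the log2 scale over its alternatives and Egr1 from 0.21 to 0.94, neither called in any. A replicate block gave 7 called members and 8968 genes and changed no call of a member. For same-numbered libraries, the correlations of their deviations were 0.0402, 0.052 and 0.152 for numbers 1, 2 and 3. Libraries numbered 1 and 2 did not correlate best with their own number, since across the lines they gave 0.0753 and 0.0755 with each other. Number 3 did correlate best with its own number. Its correlations with numbers 1 and 2 of the other line ran from -0.102 to -0.0903. Deviations were taken from the mean of each line, so these negative values are tied to the positive one and are not separate from it. What the libraries numbered 3 share was not tested. Of other list genes, Dusp1 and Map2k7 passed with the block (adjusted p = 0.0398 and 0.0336 by edgeR). Depth limits Fosb and Fosl1 most, with 11 and 19 counts in the EWS-OCT-4 line and 55 and 251 in the EGFP line.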
